A study of Mus musculus with 4 samples.

Results

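The 10 genes described here encode enzymes of leukotriene, lipoxygenase and prostaglandin synthesis and an enzyme that removes platelet-activating factor: Alox5, Alox5ap, Lta4h, Ltc4s, Alox15, Ptgs1, Ptgs2, Ptges, Pla2g4a and Pla2g7. They were taken by gene name, 10 of 47729 genes, and hold 41 of the 115220 transcripts of the table. Neutrophil RNA was sequenced in 4 libraries, 2 from wild-type and 2 from Mif -/- (Mif KO) mice. Both groups had the BALB/c SKG background, which carries a mutation of the T cell kinase gene Zap70, and both were sampled 8 weeks after curdlan, a fungal beta-glucan. Mif encodes macrophage migration inhibitory factor, a cytokine. Neutrophils were sorted from bone marrow and spleen, and the labels give neither the proportion of each, nor the age of the mice, nor whether cells of several mice were combined. Separate animals are not stated for the replicates: the p-values then measure only a spread between samples that may be technical. The files give FPKM, fragments per kilobase of transcript scaled to library size, so levels of different genes can be compared per length.

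Eicosanoids are oxygenated products of arachidonic acid, which cytosolic phospholipase A2 releases from membranes. In neutrophils 5-lipoxygenase, helped by its activating protein FLAP, turns the acid into leukotriene A4, and leukotriene A4 hydrolase then makes leukotriene B4, a strong neutrophil attractant. Leukotriene C4 synthase makes cysteinyl leukotrienes from the same precursor in eosinophils, mast cells and macrophages. Cyclooxygenases, constitutive COX-1 and inducible COX-2, start the separate route to prostaglandins, and a terminal synthase makes prostaglandin E2.

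The targeted gene itself, Mif, had 0.882 and 2.88 FPKM in the wild-type pair, and each knockout library listed it at 0. Even so, Mif did not pass the test over all genes (limma unadjusted p = 0.0103, adjusted p = 0.161). The smallest steps between low values put the relative depth at 1.23, 1, 5.28 and 4.83 in wild-type replicates 1 and 2 and knockout replicates 1 and 2, so the knockout libraries were deeper. The sample descriptions name lane 1 for them but lane 2 for wild type, and genotype, depth and lane cannot be told apart. The SD of log2 differences between replicates was 0.337 in wild type and 0.145 in knockout. Of 13 neutrophil markers 11 reached a mean of 1 FPKM in either genotype, and the granule genes Mpo and Elane did not. Ly6g, the surface marker of mouse neutrophils, rose from 519 and 491 to 918 and 936 FPKM in knockout (limma adjusted p = 0.0364). Another 4, Mmp8, Mmp9, Retnlg and Ngp, were higher at an unadjusted p under 0.05 only (limma). With Ly6g that is 5 of the 11 tested markers, against 8.35% of all genes tested that were higher in knockout at such a p. Of the 11 tested markers 6 had positive differences. The highest marker, S100a8, fell from 41370 and 38838 to 35980 and 36080 FPKM in knockout. S100a9 likewise fell from 38906 and 38638 to 34886 and 35544 FPKM. The 13 markers summed to 115341 and 110600 FPKM in wild type against 109288 and 110304 FPKM in knockout. The 9 B and plasma cell markers summed to 196 and 159 against 35.7 and 41.3 FPKM, and the 3 tested all fell (limma adjusted p under 0.05). The part of these differences in the results below was not tested. In these bulk samples fewer cells of a type and less RNA per cell cannot be told apart.

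The results on Alox5 turn on 3 of its annotated transcripts, which begin at different bases of exon 1, share exons 2 to 9 and differ after exon 9. Alox5 is on the minus strand, chromosome 6, from 116410077 to 116461178 of GRCm38, and its coding form has 14 exons. The sequences below are from GENCODE M21, 5′ to 3′, with the last 30 bases of exon 9 in capitals and the next 30 bases in lower case. They are shown because what follows exon 9 tells the forms apart.
ENSMUST00000026795, coding form, exon 9 joined to exon 10: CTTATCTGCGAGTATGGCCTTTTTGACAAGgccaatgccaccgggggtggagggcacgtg
ENSMUST00000167447, intron-retaining form, exon 9 read on into intron 9: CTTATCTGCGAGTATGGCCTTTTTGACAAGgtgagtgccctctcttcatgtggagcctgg
ENSMUST00000203722, form annotated for nonsense-mediated decay, exon 9 joined to exon 11: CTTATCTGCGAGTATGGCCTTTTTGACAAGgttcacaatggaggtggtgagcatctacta
The intron-retaining form keeps introns 9, 10 and 11, which span 606, 174 and 219 bases. The decay form skips exons 10 and 13. The junction of exon 9 with exon 10 is also held by ENSMUST00000164547, and each of the other sequences by no other Alox5 transcript of the table. The map of these transcripts shows where the forms part.

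**Figure D1:**
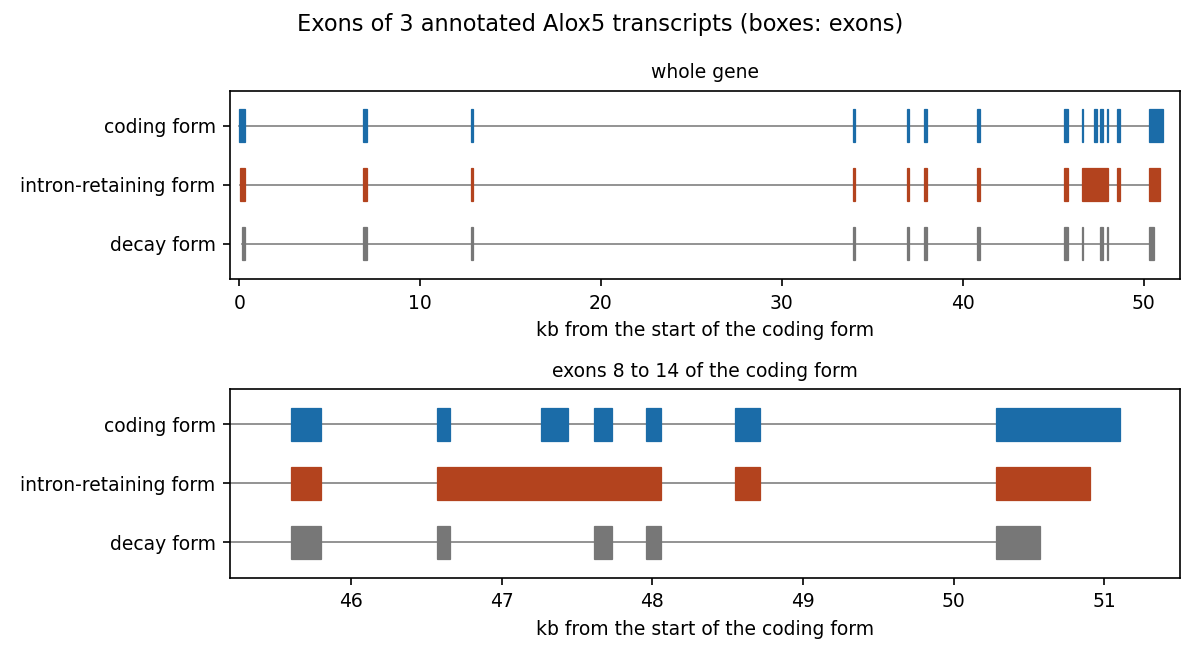
Exons (boxes) of 3 annotated Alox5 transcripts against distance in kb from the start of the coding form, for the whole gene and for exons 8 to 14. The intron-retaining form reads through introns 9, 10 and 11 as 1 block, and the decay form lacks exons 10 and 13.

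The leukotriene B4 route was abundant in every library and the cysteinyl leukotriene synthase gene Ltc4s was at most 0.123 FPKM. The 3 genes of the route, Alox5ap, Lta4h and Alox5, had mean levels of 678, 189 and 144 FPKM over the 4 libraries, at percentiles 99.8, 98.9 and 98.5 of all genes listed above 0. Comparing genotypes, 0 of the 8 genes tested passed a Benjamini-Hochberg adjusted p under 0.05 (limma), against 0.342% of the 10221 genes tested. At an unadjusted p under 0.05 there was 1 of 8, Lta4h, against 17.9% of all genes tested (8.35% higher and 9.56% lower in knockout). The 2 wild-type and 2 knockout values did not overlap in 4 of 8, against 52.8% of all genes tested, so the genes did not stand out from the rest by either count. Their median log2(FPKM + 1) difference, knockout minus wild type, was 0.07, beside 0.02 over all genes tested, with 5 of 8 positive. Ltc4s and Alox15 stayed under a mean of 1 FPKM in both genotypes and were not tested. An exact two-sided permutation of 2 against 2 samples cannot give a p below 0.333.

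**Figure D2:**
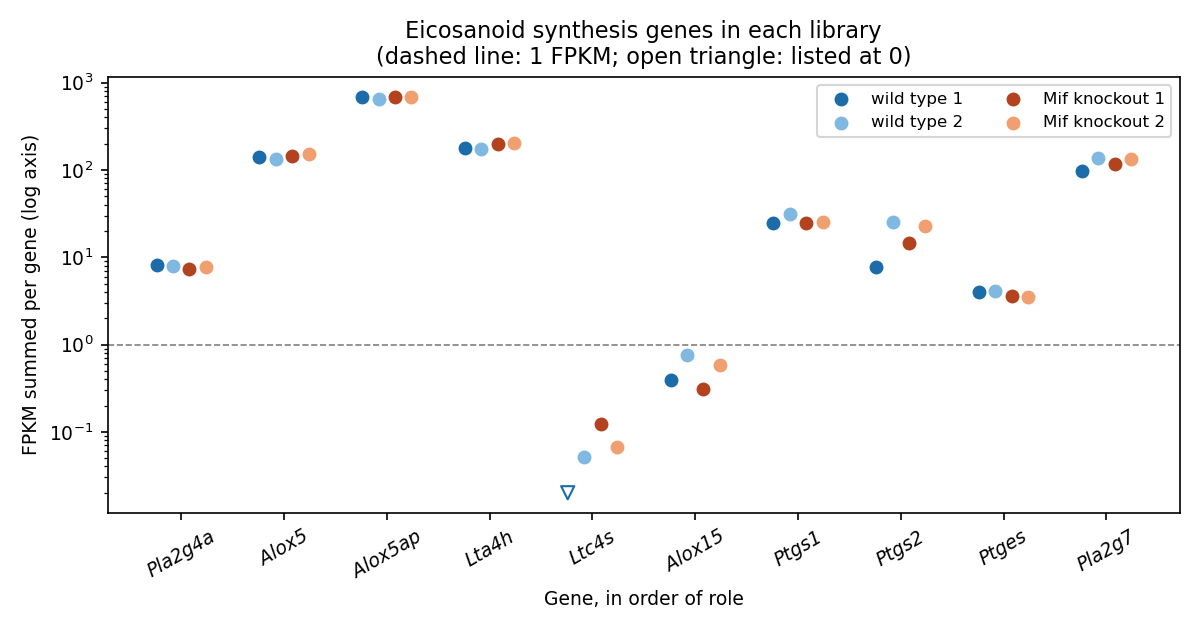
FPKM summed per gene (log axis) in each of the 4 libraries for the 10 genes in order of role, with the 1 FPKM line of the filter dashed. Alox5ap, Lta4h, Alox5 and Pla2g7 lie near or above 100 in every library, Ltc4s and Alox15 lie under 1, and Ptgs2 runs from 7.83 to 25.2.

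Pla2g4a encodes cytosolic phospholipase A2 alpha, the enzyme that supplies arachidonic acid. It stood at 8.22 and 7.97 FPKM in the wild-type pair against 7.34 and 7.70 FPKM in the knockout pair (replicate 1, then 2, here and throughout). The knockout values lay just under the wild-type ones, with no overlap; on the log2 scale they differed by -0.09 (± is the SE throughout, here ± 0.08, with 2 libraries per genotype; limma adjusted p = 0.562). The gap came from its minor transcripts. The full-length coding transcript ENSMUST00000070200 stood at 6.36 and 6.82 against 6.57 and 6.87 FPKM, a log2 difference of 0.03, and its groups overlapped. The retained-intron transcript ENSMUST00000142040, under the test's filter in the group means, stood at 1.20 and 0.764 against 0.418 and 0.478 FPKM, and was singled out after its values were seen. The gene is on the minus strand, chromosome 1, from 149829618 to 149961290, and Ptgs2 begins 139 kb beyond its start.

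Alox5ap encodes FLAP, the membrane protein that presents arachidonic acid to 5-lipoxygenase. It was the highest of the 10 genes, at 686 and 653 FPKM in the wild-type pair against 680 and 692 FPKM in the knockout pair. The groups overlapped, and the log2 difference was 0.04 ± 0.07 (limma adjusted p = 0.809). With values rescaled to TPM, in which each library has the same total, it was -0.04. Its full-length transcript ENSMUST00000071130 made up 94.8% to 97.0% of the gene's FPKM in every library and stood at 659 and 618 against 657 and 671 FPKM. The other 3 transcripts are short or incomplete, and in each both knockout values lay under both wild-type values. The largest of them, the incomplete coding transcript ENSMUST00000200806, stood at 18.4 and 22.3 against 15.6 and 13.7 FPKM (log2 difference -0.45, limma adjusted p = 0.240). ENSMUST00000200928 stood at 6.19 and 8.79 against 5.61 and 5.40 FPKM, and the non-coding ENSMUST00000202629 at 2.96 and 3.08 against 2.14 and 1.92 FPKM. The gene lies on the plus strand of chromosome 5, from 149264767 to 149288153.

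Alox5 itself, 5-lipoxygenase, stood at 142 and 135 FPKM in the wild-type pair against 146 and 152 FPKM in the knockout pair. All 4 values were close, the knockout pair just above the wild-type pair. The log2 difference was 0.11 ± 0.07 (limma adjusted p = 0.482). It was 0.034 rescaled to TPM and 0.068 with wild-type replicate 2 left out. Summed over all transcripts, the ratio of Alox5ap to Alox5 lay between 4.55 and 4.84 in the 4 libraries. It was lower in both knockout than in both wild-type libraries. Coding transcripts of Alox5ap alone stood at 683 and 649 FPKM in the wild-type pair against 678 and 690 FPKM in the knockout pair. Those of Alox5 stood at 67.6 and 66.2 against 88.1 and 85.7 FPKM, so the ratio depends on which transcripts are summed.

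Within the sum of Alox5, transcripts had log2 differences of opposite sign, and none of them passed the test over all transcripts (limma). The forms share exons, and how reads of shared exons were divided between them is not given. A higher value of 1 form and a lower value of another may therefore not be independent, which was not tested. The coding form stood at 66.8 and 65.6 FPKM in the wild-type pair against 87.6 and 85.0 FPKM in the knockout pair, a log2 difference of 0.38 ± 0.07 (n = 2 per genotype; limma unadjusted p = 0.00598, adjusted p = 0.167). The replicates lay close together and the groups far apart, yet the value did not pass over the 19696 transcripts tested. The intron-retaining form was as abundant in wild type, at 67.3 and 60.8 FPKM, and stood at 54.7 and 62.4 FPKM in knockout. Its groups overlapped, with a log2 difference of -0.13 ± 0.11 (limma adjusted p = 0.545). The decay form stood at 1.83 and 1.59 FPKM in the wild-type pair against 0.152 and 0.205 FPKM in the knockout pair. That is the largest difference of any tested transcript of the 10 genes on the log2(FPKM + 1) scale, -1.20 ± 0.13 (limma unadjusted p = 0.00108, adjusted p = 0.107). It was 1.28% and 1.18% of the gene's FPKM in wild type and 0.104% and 0.135% in knockout. A non-coding transcript from the middle of the gene, ENSMUST00000167174, stood at 3.99 and 4.79 against 2.37 and 2.48 FPKM (-0.65 ± 0.13, limma adjusted p = 0.180). The short retained-intron transcript ENSMUST00000169625 stood at 1.49 and 1.27 against 1.01 and 1.27 FPKM. The other 3 Alox5 transcripts stayed under 1 FPKM in all 4 libraries. In the authors' deposited table, the coding form has a fold of 1.30 with a q-value of 0.248 and the decay form a fold of 0.435 with a q-value of 0.234, the lowest q-values of the 10 genes.

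**Figure D3:**
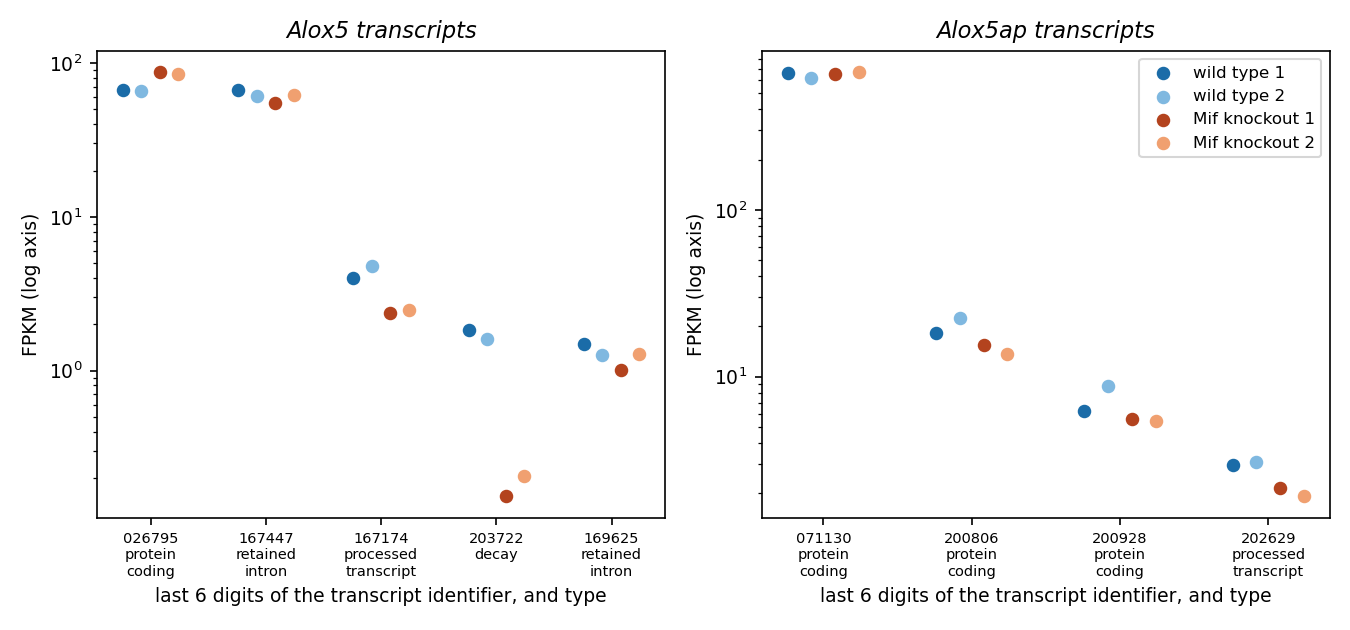
FPKM (log axis) of the tested transcripts of Alox5 and Alox5ap in each of the 4 libraries. The Alox5 coding form is higher in both knockout libraries (87.6 and 85.0 against 66.8 and 65.6 FPKM), the decay form is lower (0.152 and 0.205 against 1.83 and 1.59 FPKM), and the 3 minor Alox5ap transcripts are lower.

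Lta4h encodes leukotriene A4 hydrolase, which completes leukotriene B4. It stood at 178 and 175 FPKM in the wild-type pair against 199 and 205 FPKM in the knockout pair. Both knockout values lay above both wild-type values, and replicates within a genotype differed little. The log2 difference was 0.20 ± 0.07 (n = 2 per genotype; limma unadjusted p = 0.0306, adjusted p = 0.228). The table holds 1 transcript of the gene, ENSMUST00000016033, with 19 exons and 2029 bases. The unadjusted p was no longer under 0.05 with the replicate block, without the trend, centred on the median or rescaled to TPM, which gave a difference of 0.13 (limma adjusted p = 0.498). With 1 library left out, the log2 difference was 0.21 (wild-type replicate 1), 0.19 (wild-type replicate 2), 0.22 (knockout replicate 1) or 0.18 (knockout replicate 2). Lta4h lies on the plus strand of chromosome 10, from 93453411 to 93484875, which is 17.6 Mb from Mif on the same chromosome.

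Ltc4s, leukotriene C4 synthase, was listed at 0 in wild-type replicate 1 and stood at 0.0515 FPKM in wild-type replicate 2 and at 0.123 and 0.0661 FPKM in knockout. The wild-type values lay under the level of 3 steps, which for its main transcript was 0.0839 and 0.103 FPKM in those libraries and 0.0196 and 0.0214 FPKM in the deeper knockout ones. The main transcript was above that level in both knockout libraries, at 0.123 and 0.0519 FPKM. Wild-type levels of Ltc4s under the 3-step level could not be resolved at that depth, and a difference in the gene was not tested. Its exons share 268 bases with the antisense gene Gm26542, at most 0.0827 FPKM in any library. Mgst2, a related microsomal transferase that can also form leukotriene C4, was named after its values were seen and stood at 100.3 and 107 against 106 and 111 FPKM (limma adjusted p = 0.694).

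Alox15, the lipoxygenase of eosinophils and resident macrophages that oxygenates arachidonic acid at other carbons, stood at 0.390 and 0.749 FPKM in the wild-type pair against 0.311 and 0.581 FPKM in the knockout pair. The groups overlapped and each genotype held a lower and a higher library. Its position was chromosome 11, minus strand, from 70344152 to 70352031. The highest of the 9 eosinophil markers, Ear2, stood at 20.7 and 25.5 against 20.1 and 22.1 FPKM. The other 8 summed to 3.005 and 6.10 FPKM in the wild-type pair against 4.41 and 5.47 FPKM in the knockout pair, with Prg3 listed at 0 in all 4 libraries and Epx at 0 in 2. Alox15 was higher in the library of each genotype with the higher eosinophil marker sum. The full sums of the monocyte and macrophage, mast cell and basophil, platelet, T and NK cell and dendritic cell markers had the same order within each genotype. The part of any of these cells in the Alox15 level was not tested. Among 10 mast cell and basophil markers Cpa3, Mcpt4, Fcer1a and Tpsb2 were listed at 0 in all 4 libraries. The list summed to 351 and 359 FPKM in the wild-type pair against 334 and 346 FPKM in the knockout pair, nearly all of it Hdc, and to at most 0.717 FPKM without Hdc.

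Ptgs1 encodes COX-1 and Ptgs2 COX-2, the enzymes that start prostaglandin and thromboxane synthesis. Ptgs1 stood at 24.9 and 31.0 FPKM in the wild-type pair against 24.9 and 25.6 FPKM in the knockout pair. Only wild-type replicate 2 stood apart from the other libraries, and the log2 difference was -0.13 ± 0.12 (limma adjusted p = 0.595). Leaving out wild-type replicate 1 gave -0.29, and leaving out replicate 2 gave 0.02. The coding transcript ENSMUST00000062069 held 75.2% to 86.2% of the FPKM and stood at 20.9 and 23.3 against 21.03 and 22.1 FPKM. Part of the excess in wild-type replicate 2 lay in transcripts without a coding sequence, which made up 24.8% of the gene there and 13.8% to 16.1% in the other 3 libraries. They were the retained-intron ENSMUST00000151351 (2.18 and 3.39 against 2.29 and 1.94 FPKM) and ENSMUST00000133777 (1.20 and 2.36 against 1.05 and 0.940 FPKM) and the processed ENSMUST00000144319 (0.508 and 1.77 against 0.430 and 0.545 FPKM). Platelets are rich in COX-1. Their 10 markers summed to 5.92 and 6.36 FPKM in the wild-type pair against 4.92 and 5.64 FPKM in the knockout pair. Without the highest, Clec1b, the sums were 3.77 and 3.02 against 3.75 and 4.27 FPKM, lowest in wild-type replicate 2. Pf4 stood at most at 0.491 FPKM, and no marker was listed at 0 in all 4. The part of platelets in the Ptgs1 level was not tested.

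Ptgs2 varied more between the libraries than any other of the 8 tested genes. It stood at 7.83 and 25.2 FPKM in the wild-type pair against 14.4 and 22.6 FPKM in the knockout pair. Both knockout libraries lay between the wild-type ones, which differed 3.22-fold. The log2 difference was 0.33 ± 0.55 (limma adjusted p = 0.789). Leaving out wild-type replicate 1 gave -0.46 and leaving out replicate 2 gave 1.11, so the direction rested on which wild-type library was kept. In both transcripts of the gene wild-type replicate 1 was the lowest library. The full-length ENSMUST00000035065 stood at 6.09 and 17.2 against 9.85 and 17.8 FPKM, and the short, incomplete ENSMUST00000190784 at 1.73 and 7.98 against 4.53 and 4.81 FPKM. The ratio of Ptgs1 to Ptgs2 was 3.19 in wild-type replicate 1 and between 1.13 and 1.73 in the other libraries. Summed over all transcripts, Ptgs1 thus exceeded Ptgs2 per length in all 4. Coding transcripts alone gave the other order in wild-type replicate 2 (23.3 for Ptgs1 against 25.2 FPKM for Ptgs2). They did so in knockout replicate 2 too (22.1 against 22.6 FPKM).

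Ptges, the inducible microsomal synthase that makes prostaglandin E2, stood at 4.05 and 4.08 FPKM in the wild-type pair against 3.56 and 3.47 FPKM in the knockout pair. The groups did not overlap, and replicates differed by less than the genotypes did. The log2 difference was -0.17 ± 0.08 (limma unadjusted p = 0.0946, adjusted p = 0.358). The coding transcript ENSMUST00000102852 stood at 2.34 and 2.33 against 2.00 and 2.13 FPKM. The processed transcript ENSMUST00000132244 held 30.7% to 40.8% of the FPKM, at 1.24 and 1.51 against 1.45 and 1.21 FPKM. Per length Ptgs1 exceeded Ptges 6.17-fold to 7.60-fold. Ptges is on the minus strand, chromosome 2, from 30889471 to 30929863, and Ptgs1 on the plus strand of that chromosome, from 36230426 to 36252272.

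Pla2g7 encodes the secreted acetylhydrolase that inactivates platelet-activating factor and is made by macrophages among other cells. It stood at 96.4 and 136 FPKM in the wild-type pair against 116 and 133 FPKM in the knockout pair. Both knockout values lay between the wild-type ones, and the log2 difference was 0.11 ± 0.18 (limma adjusted p = 0.779). With wild-type replicate 1 left out it was -0.13, and with replicate 2 left out 0.36. The full-length transcript ENSMUST00000024706 stood at 75.4 and 112 against 96.0 and 106 FPKM. The processed ENSMUST00000165706 stood at 12.5 and 17.9 against 13.2 and 15.6 FPKM, the retained-intron ENSMUST00000163489 at 6.17 and 2.69 against 3.56 and 8.03 FPKM, and ENSMUST00000169694 at 2.06 and 2.93 against 2.60 and 3.04 FPKM. The retained-intron transcript was high where the full-length one was low within wild type, and not within knockout. All 12 monocyte and macrophage markers were lower in wild-type replicate 1 than in replicate 2. They summed to 223 and 269 FPKM in the wild-type pair against 243 and 256 FPKM in the knockout pair, and to 49.3 and 67.4 against 57.5 and 64.4 FPKM without the highest, Lyz1; no marker of the list was at 0. This is the same order of libraries as for Pla2g7 and Ptgs2 within each genotype. The eosinophil, mast cell and basophil, platelet, T and NK cell and dendritic cell marker sums had that order too. Without their highest gene, the mast cell and basophil sum and the platelet sum did not keep it. The neutrophil, B and plasma cell and erythroid sums did not have it. The part of macrophages or of other cells in Pla2g7 or Ptgs2 was not tested. The opposite-strand gene 1700071M16Rik shares 319 exon bases with Pla2g7 and stood at 0.701 to 1.27 FPKM.

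In order of level per length, summed over all transcripts, Alox5ap, Lta4h and Alox5 were followed by Pla2g7, Ptgs1, Ptgs2, Pla2g4a, Ptges, Alox15 and Ltc4s. The values of Alox5 and Pla2g7 overlapped over the 4 libraries, as did those of Ptgs1 and Ptgs2 and those of Ptgs2 and Pla2g4a. All other neighbours in this order were apart in every library. By coding transcripts alone, Pla2g7 exceeded Alox5 in every library. Pla2g7 then stood at 77.8 and 115 FPKM in the wild-type pair against 98.9 and 109 FPKM in the knockout pair. The coding sum of Alox5 was 67.6 and 66.2 against 88.1 and 85.7 FPKM.

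No transcript of the eicosanoid genes passed the test, and most of those not annotated as coding had negative differences. Of 23 transcripts of the 10 genes that were tested, 0 passed over all transcripts, against 0.239%, and 6 had an unadjusted p under 0.05 (limma), against 19.2% of all transcripts tested. Their groups did not overlap in 9 of 23, against 56.2%. Among the 12 coding transcripts 8 were higher in knockout, and among the 11 of other types 10 were lower. Over all tested transcripts, 87.1% of the 3400 retained-intron transcripts and 82.2% of the 1226 processed transcripts were lower in knockout, against 40.6% of the 12458 coding ones and 45.3% of the 813 annotated for nonsense-mediated decay. The Alox5 decay form thus differed in the direction of the smaller share of its type. The deeper libraries were those with less of the retained-intron and processed types; the part of depth was not tested.

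The balance of coding to other transcripts within a gene was compared in 6 of the 10 genes, in a test added after their transcripts had been seen. In Alox5, other transcripts made up 52.5% and 50.9% of the FPKM in wild type and 39.8% and 43.7% in knockout. Its log2 ratio of coding to other transcripts was higher in knockout by 0.57 ± 0.19 (n = 2 per genotype; limma unadjusted p = 0.0353, adjusted p = 0.138). Of the 6 genes 1 had an unadjusted p under 0.05, against 31.7% of the 3133 genes with both kinds, and 0 passed, against 0.287%. The ratio was higher in knockout in 6 of 6, against 80.6% of all genes, whose median difference was 0.33. Alox5 lay at percentile 81.9 of them. Pla2g4a differed by 0.48 ± 0.19 (other transcripts 18.0% and 11.7% against 8.02% and 7.29%), Ptgs1 by 0.46 ± 0.25 and Alox5ap by 0.45 ± 0.22. Pla2g7 and Ptges differed by 0.11 ± 0.22 and 0.03 ± 0.18 and turned sign without single libraries.

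**Figure D4:**
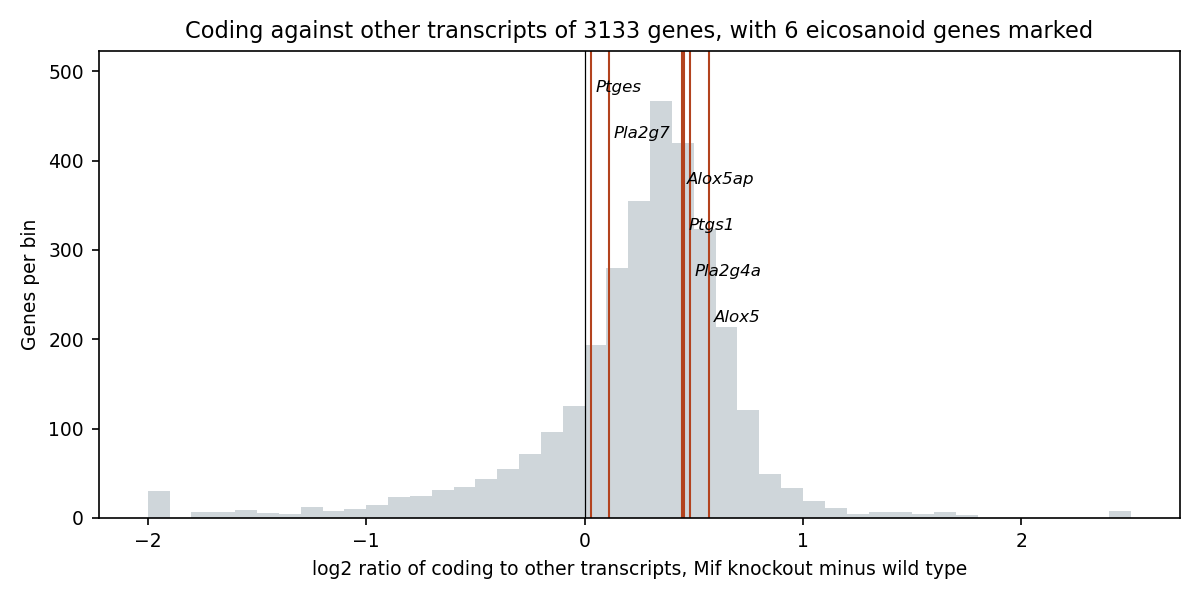
Histogram over 3133 genes of the difference, knockout minus wild type, in the log2 ratio of coding to other transcripts, with 6 eicosanoid genes as vertical lines; values beyond the axis ends are counted in the end bins. All 6 lines lie above 0, as do 80.6% of the genes, and they lie within the bulk of the distribution.

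Among 98 further genes of the pathway in 7 role lists, 45 were tested and 0 passed over all genes (limma). At an unadjusted p under 0.05 there were 6, all higher in knockout, which is 13.3% of them against 17.9% of all genes tested. Their median log2 difference was 0.04, with 27 of 45 positive, and their groups did not overlap in 22 of 45, against 52.8% of all genes tested. Another 19 were listed at 0 in all 4 libraries.

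The list of lipid receptors, in which the formyl peptide receptors Fpr1 and Fpr2 were counted, held 3 of the 6. That is 37.5% of its 8 tested genes against 17.9% of all genes tested. Ltb4r1, the high-affinity leukotriene B4 receptor BLT1, stood at 135 and 134 FPKM in the wild-type pair against 156 and 149 FPKM in the knockout pair (0.18 ± 0.07, limma unadjusted p = 0.0476, adjusted p = 0.275). Like Lta4h, it was above the wild-type range in both knockout libraries. Fpr2, a formyl peptide receptor that also binds lipoxin A4 and annexin A1, stood at 605 and 630 against 687 and 709 FPKM (limma unadjusted p = 0.0477, adjusted p = 0.275). Both Ltb4r1 and Fpr2 thus lay just under the 0.05 line. Fpr1, the main formyl peptide receptor, stood at 160 and 170 against 192 and 197 FPKM (limma adjusted p = 0.202). Of 21 receptor genes 8 were tested and 5 were listed at 0 in every library. Ptger1, a prostaglandin E2 receptor named after its values were seen, lay the other way with no overlap, at 1.94 and 1.50 against 1.39 and 1.14 FPKM (limma adjusted p = 0.374). The cysteinyl leukotriene receptors Cysltr1 and Cysltr2 stood at most at 0.0257 and 0.167 FPKM.

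Among the other lists, the members with the lowest unadjusted p and the highest levels were as follows. Of 8 enzymes that make or break down platelet-activating factor, 7 were tested and 1 had such a p, Lpcat1, a lysophospholipid acyltransferase (20.1 and 19.6 against 24.2 and 24.9 FPKM; 0.29 ± 0.07, limma unadjusted p = 0.0095, adjusted p = 0.160). Its relative Lpcat2, which makes platelet-activating factor in activated leukocytes, stood at 56.2 and 53.2 against 49.5 and 53.9 FPKM, and Pafah1b1, an intracellular acetylhydrolase subunit, at 34.8 and 31.1 against 34.0 and 36.1 FPKM. Lpcat1 was apart between the genotypes, whereas Lpcat2 and Pafah1b1 overlapped.

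Of 18 further phospholipase genes 2 were tested, the lysosomal Pla2g15 (5.30 and 6.44 against 6.85 and 7.22 FPKM) and the calcium-independent Pla2g6 (0.943 and 0.886 against 1.42 and 1.09 FPKM). Neither had an unadjusted p under 0.05, and 8 of the list were listed at 0 throughout. Among 4 tested lipoxygenase partners 0 had such a p. Cotl1, a coactosin-like protein that binds 5-lipoxygenase, stood at 561 and 549 against 638 and 612 FPKM (limma adjusted p = 0.281), and the microsomal transferase Mgst1 at 287 and 301 against 286 and 292 FPKM. The lipoxygenase genes Alox12, Alox12b, Alox12e, Alox8 and Aloxe3 stood at most at 0.107 FPKM in any library.

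Leukotriene turnover genes held 6 tested of 15, with 0 at an unadjusted p under 0.05. Cyp4f18, the cytochrome that oxidises leukotriene B4 in mouse neutrophils, stood at 101 and 114 against 92.9 and 100.1 FPKM (-0.15 ± 0.09, limma adjusted p = 0.455), and Ggt5, which trims leukotriene C4, at 14.6 and 18.5 against 14.7 and 15.6 FPKM. Of 6 tested prostanoid enzymes and transporters 1 had such a p, the aldose reductase gene Akr1b3 (1.94 and 1.68 against 2.496 and 2.49 FPKM; limma adjusted p = 0.211). The cytosolic synthase Ptges3 stood at 22.5 and 26.0 against 24.1 and 25.5 FPKM and the exporter Abcc4 at 8.11 and 7.55 against 8.54 and 8.76 FPKM.

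Of 12 tested regulators 1 had an unadjusted p under 0.05, the annexin Anxa5 (24.05 and 22.9 against 27.7 and 27.6 FPKM; limma adjusted p = 0.215). Anxa1, the glucocorticoid-induced annexin that restrains phospholipase A2 signalling, was the highest gene of the pathway lists at 4087 and 3981 against 4088 and 4348 FPKM, and Anxa2 stood at 660 and 633 against 594 and 644 FPKM. Neither Anxa1 nor Anxa2 had an unadjusted p under 0.05.

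**Figure D5:**
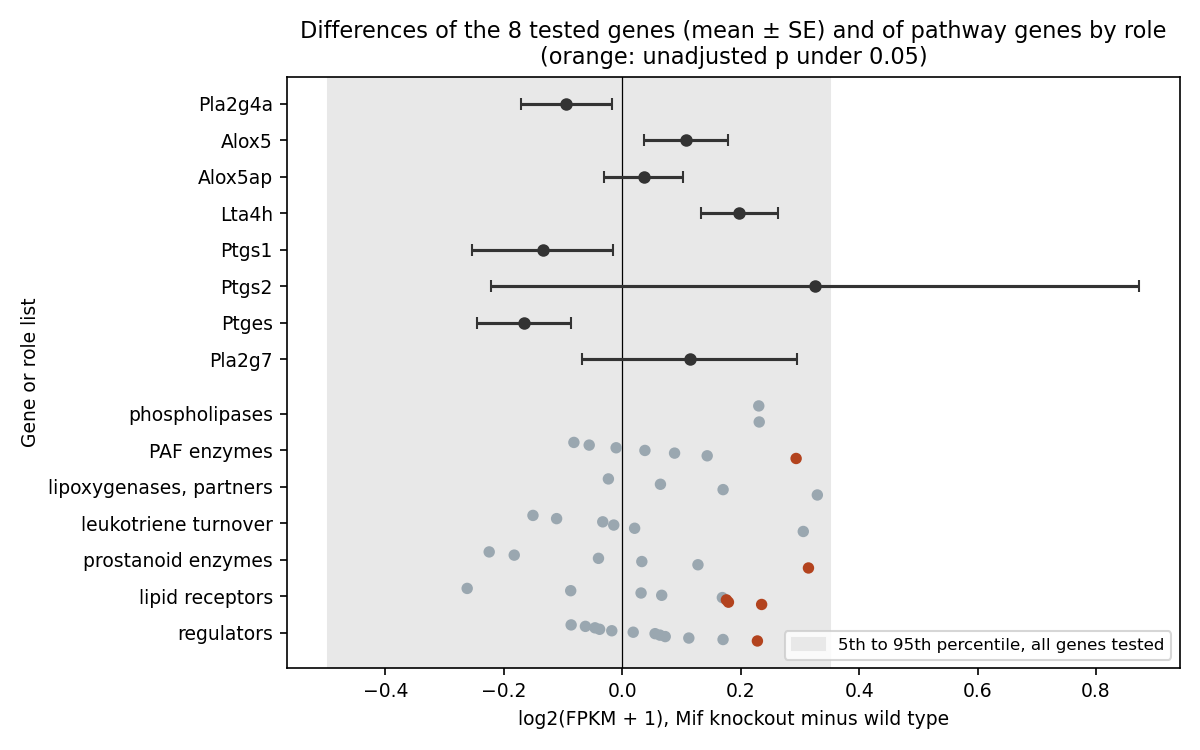
Difference in log2(FPKM + 1), knockout minus wild type, for the 8 tested genes (point and SE, n = 2 per genotype) and for the tested genes of 7 pathway lists (points; orange where the unadjusted p is under 0.05), over the 5th to 95th percentile range of all genes tested (grey). All points of the 8 genes lie within the grey range, and the SE bar of Ptgs2 runs past it.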

How the data were processed

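Total RNA of sorted neutrophils was depleted of ribosomal RNA and sequenced in 2 wild-type and 2 Mif knockout samples, per the labels' protocols. Per the file headers, the authors deposited 1 FPKM value for each transcript in each library, and beside it their fold, p-value and q-value of the comparison. The submitters' processing notes name the build GRCm38 and the tools StringTie 2.1.4, HISAT2 2.1.0, R 3.6.1 and SAMtools 1.9, without saying what each did. Which annotation, strand setting or filter was used is not given in the sources used here. Of the transcripts, 114332 matched GENCODE M21, which gave types, lengths and positions.

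FPKM was summed per gene identifier and tested as log2(FPKM + 1), which understates differences of low genes. Genes, and separately transcripts, entered when the mean of 1 genotype or both reached 1 FPKM, using limma 3.58.1 in R 4.3.3, with trended moderation, no covariates and Benjamini-Hochberg adjustment over all features at 0.05. The test was run on simulated data first. The files give no counts: relative depth came from the smallest step of FPKM times length in single-exon genes (83 to 104 values within 2% of 1 step, against 4 to 17 at a step shifted by 13%). Whether 1 step is 1 read or 1 fragment is unknown, and no counting interval is given.

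The 10 genes, pathway lists and tests were chosen with earlier results of these data known. Named were all 10 genes, their transcripts with a mean of at least 1 FPKM, and per pathway list up to 3 genes of lowest unadjusted p that did not overlap and the 2 highest. Alternatives were another pseudocount, filters, scalings, moderation, summing, a replicate block and leaving out each library.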

Additional observations from a re-analysis of the deposited data

How the results depend on the processing

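Over 11 alternatives, genes past the threshold numbered 35 in the main test, 0 with no filter, 16 at a filter of 5 FPKM and 0 to 2938 when 1 library was left out (0 without either knockout library, 2675 if wild-type replicate 1 was omitted and 2938 if replicate 2 was). Of the eicosanoid genes 0 passed, and 0 to 2 with 1 library left out: Ptgs1 and Ptgs2 if wild-type replicate 1 was omitted, and Ptgs2 and Pla2g7 without wild-type replicate 2. At an unadjusted p under 0.05 there was 1, and 0 with the replicate block, without the trend, centred on the median or rescaled to TPM, and 0 to 3 with 1 library left out. Pathway genes with such a p numbered 6, 13 with no filter and 0 to 18 with 1 library left out. No transcript of the 10 genes passed under any of the 11 alternatives. The replicate numbers give no sign of pairing (the correlation of deviations between genotypes was 0.0065 over genes). With the replicate block 34 genes and 0 of the eicosanoid genes passed.

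Directions that turned with 1 library left out are given as ranges of the log2 difference: Alox5ap -1.3e-05 to 0.072, Ptgs1 -0.29 to 0.017, Ptgs2 -0.46 to 1.11 and Pla2g7 -0.13 to 0.36. For transcripts they were -0.11 to 0.041 (Ptgs1 ENSMUST00000062069), -0.35 to 1.01 (Ptgs2 ENSMUST00000035065), -0.66 to 1.05 (Ptgs2 ENSMUST00000190784), -0.11 to 0.053 (Ptges ENSMUST00000132244) and -0.018 to 0.069 (Pla2g4a ENSMUST00000070200). For Pla2g7 they were -0.15 to 0.41 (ENSMUST00000024706), -0.17 to 0.81 (ENSMUST00000163489), -0.30 to 0.18 (ENSMUST00000165706) and -0.041 to 0.32 (ENSMUST00000169694). The coding ratio ranged from -0.10 to 0.33 in Pla2g7 and from -0.067 to 0.13 in Ptges. Rescaled to TPM, Alox5ap was -0.037, its transcript ENSMUST00000071130 -0.016 and Pla2g4a ENSMUST00000070200 -0.041. Centred on the median, Ptgs1 ENSMUST00000062069 was 0.052, Ptges ENSMUST00000132244 0.058 and Pla2g7 ENSMUST00000165706 0.030. By its highest transcript alone Pla2g4a was 0.025. The cause was not tested. The share of genes with a higher coding ratio was 75.8% to 81.2% with 1 library left out, and Alox5 kept its direction in all 6 alternatives of that test. With 1 library left out, the lone sample of its group is assumed to vary like the other group.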
